A study of Mus musculus with 8 samples.

Results

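The genes described here belong to the Th17 programme: the cytokines Il17a and Il17f, the transcription factor Rora, the chemokine receptor Ccr6, its ligand Ccl20 and the receptor subunit Il23r. They were found on mouse Affymetrix arrays as probe sets annotated with the gene's symbol alone, and where a gene had several, the one with the highest average level was read as its main probe set. Of the 6 genes, 4 had such a probe set among 18193 genes: Il17a, Ccr6 and Ccl20 with 1 each and Rora with 9. Il17f and Il23r had none in the annotation used and their levels were not analysed here.

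The study set T follicular helper (Tfh) cells beside 3 cultured helper T cell types, with 2 arrays in each group. Tfh cells were CD4+CXCR5+ T cells sorted from C57BL/6 spleens at day 7 of a response to the protein antigen KLH, and were then restimulated with anti-CD3 for 4 h; the age of these mice was not given in the labels. Th17, Th2 and Th1 cells all began as naive CD4 T cells from spleen and lymph node of OT-II mice aged 6 to 8 weeks, which carry a T cell receptor transgene on the C57BL/6 background, and were activated for 5 days with OT-II peptide and antigen-presenting cells (APC). IL-6, TGFb, anti-IL-4 and anti-IFNg were added to the Th17 cultures. IL-4 and anti-IFNg were added to the Th2 cultures. IL-12 and anti-IL-4 were added to the Th1 cultures. Cell type, source, antigen and restimulation differ together between Tfh and the cultured cells and cannot be told apart, and CXCR5 marks follicular homing without separating subsets of CXCR5+ cells. The labels do not say whether 2 arrays of a group came from separate animals or cultures, so p-values measure the spread between these arrays, which may be technical.

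Th17 cells are helper T cells that arise when naive cells meet antigen with IL-6 and TGF-beta, and they are known for defence at mucosal surfaces and for autoimmune inflammation. Their cytokines IL-17A and IL-17F act on epithelium and stroma, which answer with chemokines that draw neutrophils. ROR-alpha, made from Rora, is a nuclear receptor that binds DNA and helps to drive the Th17 programme, IL-23 receptor sustains it, and CCR6 guides the cells along gradients of CCL20.

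The promoters are shown first because ROR factors bind DNA sites that hold a short core, AGGTCA. Of such a site only the core was searched for. On either strand, 5 of the 6 genes hold these letters within 250 bases before the start of transcription. The windows are from RefSeq on the GRCm38.p6 build, which gave 7 windows for the 6 genes, 5 of them with the letters. Of all 32851 mouse windows of this length, 14.0% hold the letters. Each window below is written 5′ to 3′ on the gene's strand in lower case, with the core in capitals as AGGTCA, or as TGACCT where it lies on the opposite strand. Il17a lies at chr1:20730655-20730904 (plus strand), Il17f at chr1:20784271-20784520 (minus strand), Ccr6 at chr17:8235793-8236042 (plus strand) and Ccl20 at chr1:83116516-83116765 (plus strand).
Il17a: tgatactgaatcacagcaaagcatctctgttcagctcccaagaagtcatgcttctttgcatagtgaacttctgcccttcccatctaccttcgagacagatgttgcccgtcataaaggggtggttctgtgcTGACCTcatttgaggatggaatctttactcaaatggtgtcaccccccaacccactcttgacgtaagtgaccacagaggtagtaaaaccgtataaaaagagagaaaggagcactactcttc
Il17f: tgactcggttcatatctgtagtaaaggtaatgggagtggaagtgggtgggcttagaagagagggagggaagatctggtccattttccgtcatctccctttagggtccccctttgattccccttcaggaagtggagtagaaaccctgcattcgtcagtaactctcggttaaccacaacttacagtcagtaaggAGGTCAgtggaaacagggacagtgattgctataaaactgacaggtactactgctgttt
Ccr6: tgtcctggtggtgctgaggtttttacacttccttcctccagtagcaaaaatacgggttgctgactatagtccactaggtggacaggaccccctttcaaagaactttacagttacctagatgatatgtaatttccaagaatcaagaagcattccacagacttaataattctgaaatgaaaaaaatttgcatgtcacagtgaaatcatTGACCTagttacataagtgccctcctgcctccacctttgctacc
Ccl20: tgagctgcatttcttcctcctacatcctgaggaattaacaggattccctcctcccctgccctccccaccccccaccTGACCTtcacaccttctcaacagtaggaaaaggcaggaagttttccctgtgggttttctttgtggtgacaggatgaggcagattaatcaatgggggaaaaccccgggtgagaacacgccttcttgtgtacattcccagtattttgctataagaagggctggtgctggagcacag
Counted back from the start, the core stands at bases 120 to 115 in Il17a, 58 to 53 in Il17f, 44 to 39 in Ccr6 and 174 to 169 in Ccl20. The Il23r window, at chr6:67491856-67492105 on the minus strand, holds it at bases 229 to 224 and 66 to 61. The Rora window, at chr9:68653536-68653785, and a second Ccr6 window, at chr17:8242276-8242525, do not contain these letters. The STAT core TTCNNNGAA, found in 7.02% of all windows, occurs at bases 157 to 149 and 120 to 112 of the first Ccr6 window. A kappa B consensus, found in 7.25% of all windows, occurs in the Ccl20 window at bases 80 to 71 and in the second Ccr6 window. These are matches of letters in a sequence, and binding was not measured.

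All levels below are the authors' log2 values, and a level not above 3.13, the median of all values of the 8 arrays, is called background. The 2 Tfh arrays were distributed differently from the 6 cultured arrays: the median difference over the 11178 tested genes was 0.83 against Th17, 0.84 against Th2 and 0.85 against Th1, all with Tfh higher, and 0.43, 0.47 and 0.46 after arrays were shifted to the same median. After quantile normalization it was -0.19, -0.19 and -0.20. Between cultured groups it lay between -0.02 and 0.01 as deposited. Calls between Tfh and Th17 split 4667 higher to 690 lower as deposited, 1558 to 2275 after quantile normalization and 3319 to 1127 after shifting arrays to the same median. The matching splits were 4784 to 770, 1803 to 2391 and 3645 to 1212 against Th2, and 4780 to 689, 1747 to 2378 and 3544 to 1160 against Th1. The 2 Tfh arrays also lay closer together (11 genes differing by over 1 log2 unit) than those of Th17 (1339), Th2 (696) or Th1 (1435). Cxcr5, Il4 and Ifng were highest on the Tfh, Th2 and Th1 arrays in turn, but other listed markers did not all follow the labels. Cxcr5, the sorted receptor, was 11.25 and 11.20 in Tfh cells and at most 8.12 elsewhere, Il4 was 15.20 and 15.57 in Th2 cells and at most 10.60 elsewhere, and Ifng was 15.39 and 15.07 in Th1 cells and at most 14.12 elsewhere. The other Tfh markers (Bcl6, Pdcd1, Icos, Tox) and the Th2 markers Il5 and Il13 were likewise highest on both arrays of their type. Gata3, a Th2 marker, was 10.67 and 10.52 in Tfh cells and 10.44 and 11.13 in Th2 cells. Of the Th1 markers, Tbx21 was 10.89 and 9.43 in Th1 and 10.66 and 10.59 in Tfh cells. Cxcr3 was 7.06 and 9.60 in Th1 and 11.30 and 11.23 in Tfh cells. Il12rb2 was 10.73 and 8.24 in Th1 and 8.71 and 9.29 in Th17 cells. All 5 general CD4 T cell markers were above background on every array.

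Il17a, the cytokine that names the Th17 type, was highest in Th17 cells and second in Tfh cells. Its level (probe set 1421672_at) was 10.98 and 10.98 in Tfh cells, 14.35 and 13.93 in Th17 cells, 10.59 and 8.67 in Th2 cells and 9.31 and 9.51 in Th1 cells. Both Th17 arrays stood above the 6 others by 2.95 log2 units, the widest such gap of all 11178 tested genes as deposited, after quantile normalization (3.19) and after the shift to the same median (3.34). By comparison, 1.49% of tested genes had both Th17 arrays above the 6 others by any margin and 0.179% by at least 1 log2 unit. Il17a was above background on all 8 arrays, including the Th2 and Th1 arrays, where it lay between the 85.2 and 93.8 percentiles of its array. Both Tfh arrays also lay above all Th2 and Th1 arrays, although Th2 replicate 1 came within 0.39 log2 units, and after quantile normalization the order of these arrays overlapped, with a gap of -0.50.

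**Figure D1:**
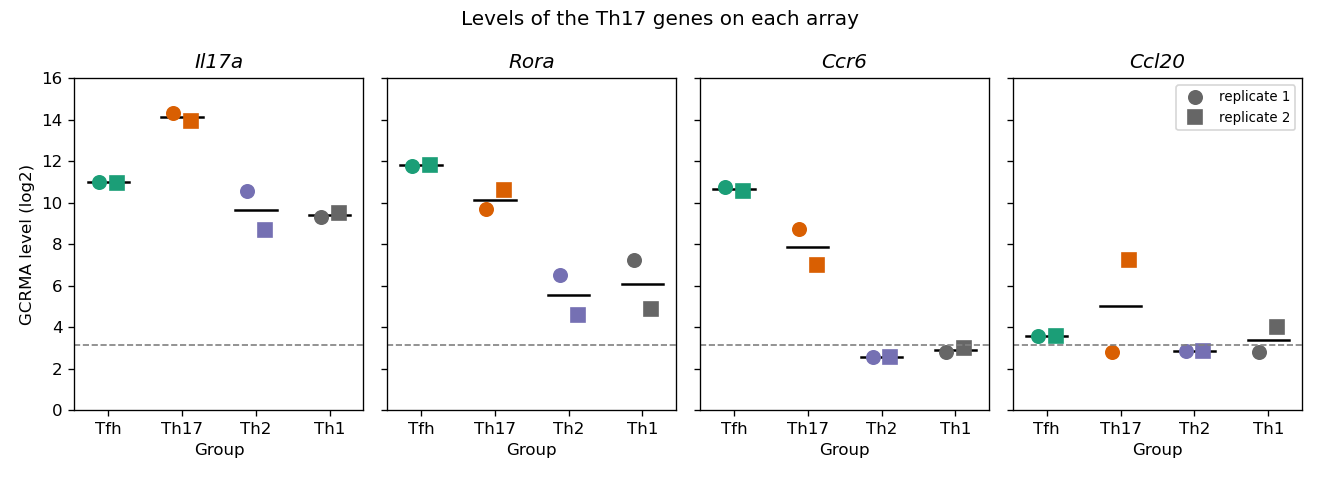
Level of Il17a, Rora, Ccr6 and Ccl20 (y axis, GCRMA value on the log2 scale) on each array of the Tfh, Th17, Th2 and Th1 groups (x axis). Circles are replicate 1, squares replicate 2, bars the mean of 2 arrays, and the dashed line is the background limit of 3.13. Il17a is highest in Th17 cells, Rora and Ccr6 are highest in Tfh cells and next highest in Th17 cells, and Ccl20 clears background by more than 1 log2 unit on 1 Th17 array only.

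In the limma fit over all genes, Il17a fell by 3.16 log2 units in Tfh cells relative to Th17 cells (SE 0.59, Benjamini-Hochberg adjusted p = 0.00476), which is 8.96-fold lower on the linear scale. It was the only one of the 4 genes called lower in Tfh cells, where 6.17% of tested genes were. Relative to the median gene, which was higher in Tfh cells, the difference was -3.99. In Th17 cells Il17a rose by 4.51 relative to Th2 cells (SE 0.59, adjusted p = 0.0433), against 0.188% of tested genes called higher. That call was the less firm one: the adjusted p ranged up to 0.318 when the fit used the arrays of the 2 groups alone, was 0.0655 with no filter on low values, and exceeded 0.05 without either Tfh (0.171 and 0.172), Th17 (0.0915 and 0.0994) or Th1 array (0.0656 and 0.0662). The difference between Th17 and Th1 cells was larger, at 4.73 (SE 0.59), with an adjusted p of 0.0698. In a fit of the 2 groups alone the adjusted p was 0.167, and in a fit of the 6 cultured arrays 0.276. The difference was called only when a Th2 array was left out. Wherever an array is left out here, its group has 1 array and is assumed to vary like the other groups, which alone supply the spread.

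Il17a in Tfh cells was not called different from Th2 cells (difference 1.35, 95% interval -0.10 to 2.79, adjusted p = 0.0882) or Th1 cells (1.57, interval 0.12 to 3.01, adjusted p = 0.0569) in the limma fit. Without Th2 replicate 1, the array with the higher Il17a of that group, the difference from Th2 cells was 2.30 (adjusted p = 0.0018), with 1 Th2 array and a spread taken from the other groups. Without either Th2 array the difference from Th1 cells was called (adjusted p = 0.00202 and 0.00195), and so it was in a fit of the Tfh and Th1 arrays alone (0.00245). Relative to the median gene the differences were 0.51 and 0.72, and neither was called after quantile normalization. Th2 and Th1 cells differed by 0.22 (interval -1.22 to 1.67), within the spread of the Th2 arrays. The order of the group means was therefore Th17, Tfh, Th2 and Th1, with the last 3 not separated by the fit.

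RNA from other IL-17-producing cells was looked for through gamma-delta T cell markers, since such cells are known to make IL-17A. Of 5 markers 2 were on the array: Cd163l1, a scavenger receptor of IL-17-producing gamma-delta T cells, was 8.28 and 8.30 in Tfh cells and between 2.62 and 4.62 elsewhere, while Sox13, a transcription factor of these cells, was at background on all 8 arrays. The log2 summed level of the list was 8.31 and 8.33 in Tfh cells, 3.86 and 3.85 in Th17 cells, 4.21 and 3.79 in Th2 cells and 4.97 and 3.69 in Th1 cells. Its part in the Il17a level of Tfh cells was not tested. In bulk samples such as these, fewer cells of a type and less RNA per cell cannot be told apart.

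Ccr6, the receptor that Th17 cells share with B cells and some other leukocytes, was high in Tfh cells, intermediate in Th17 cells and at background in Th2 and Th1 cells. Its level (probe set 1450357_a_at) was 10.77 and 10.59 in Tfh cells, 8.73 and 6.99 in Th17 cells, 2.57 and 2.56 in Th2 cells and 2.78 and 2.98 in Th1 cells. No 2 groups overlapped, although the Th2 and Th1 values are both background. The lowest Tfh or Th17 array stood 4.01 log2 units above the highest Th2 or Th1 array, the widest gap of this kind among the 11178 tested genes, as it also was after quantile normalization (4.29) and the shift to the same median (4.04). Of all tested genes 5.9% had this order by any margin and 0.116% by at least 1 log2 unit.

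Ccr6 rose by 8.12 in Tfh cells relative to Th2 cells (SE 0.54, adjusted p = 0.000111) and by 7.80 relative to Th1 cells (SE 0.54, adjusted p = 0.000135), against 42.8% of tested genes called higher in either comparison, which share the Tfh arrays. Ccr6 passed the filter through the Tfh and Th17 arrays alone, and its Th2 and Th1 values are background. The p-values against Th2 and Th1 cells therefore set signal against background. As deposited, the Tfh mean stood 7.55 log2 units above the background limit and the Th17 mean 4.73, lower bounds on the differences from those 2 types. The Tfh bound does not carry over to other scalings: after quantile normalization the Tfh difference was 7.38 from Th2 and 7.01 from Th1 cells. Relative to Th17 cells Ccr6 rose by 2.82 in Tfh cells (SE 0.54, adjusted p = 0.00548), where 41.8% of tested genes were called higher. The difference was 1.99 relative to the median gene, and 1.77 with an adjusted p of 0.0335 after quantile normalization. Among cultured types, Ccr6 rose by 5.30 in Th17 cells relative to Th2 cells (SE 0.54, adjusted p = 0.0186). The difference from Th1 cells was 4.98 (SE 0.54, adjusted p = 0.0513), just outside the threshold. It passed after quantile normalization (0.0482), with a filter at the 75th percentile (0.0448) and with each gene's probe sets averaged (0.0499). The adjusted p was 0.577 in a fit of the 2 groups alone, 0.229 in a fit of the 6 cultured arrays and 0.101 with the replicate number as a block. Without Th17 replicate 1 the difference was 4.11, and without Th17 replicate 2 it was 5.85. The call against Th2 cells was lost in a fit of the 2 groups alone (adjusted p = 0.245) and in a fit of the 6 cultured arrays (0.0998). It was also lost without either Tfh array and without either Th2 array. The difference itself lay between 5.30 and 5.60 in those fits and under every scaling.

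B cells also carry CCR6, and 9 of 10 B cell markers were on the array. Their log2 summed level was 10.05 and 10.06 in Tfh cells, 9.20 and 7.45 in Th17 cells, 8.20 and 9.80 in Th2 cells and 6.25 and 7.55 in Th1 cells. Cd79a, a chain of the B cell receptor complex, was 8.02 and 7.93 in Tfh cells, 7.18 and 5.40 in Th17 cells, 4.49 and 7.11 in Th2 cells and 3.86 and 4.53 in Th1 cells, and Pax5, the factor that defines the lineage, was at background on all 8 arrays. In Tfh cells Cd79b was 8.30 and 8.38, Ms4a1 7.90 and 7.97 and Cd22 7.07 and 7.06, while Blk and Fcrla were at background. Of 6 tested B cell markers, 2 were called higher in Tfh than in Th17 cells, beside 41.8% of all tested genes. Against Th2 cells 2 were called higher and against Th1 cells 5, beside 42.8% in each. The part of B cell RNA in the Ccr6 level of the Tfh and Th17 arrays was not tested. All 8 neutrophil markers were likewise above background on the Tfh arrays, with log2 sums of 16.14 and 16.09 in Tfh cells and at most 11.87 elsewhere. The 5 CD4 T cell markers summed to 15.77 and 15.71 in Tfh cells. The 10 myeloid and dendritic markers summed to 12.02 and 11.99 in Tfh, 11.39 and 11.84 in Th17, 12.67 and 10.02 in Th2 and 10.37 and 8.43 in Th1 cells. The part of RNA from such cells in the Tfh levels of any gene, including the wider lists below, was not tested.

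Ccl20, the ligand of CCR6, which Th17 cells can secrete, was the 1 gene of the 4 near background in most arrays. Its level (probe set 1422029_at) was 3.57 and 3.57 in Tfh cells, 2.82 and 7.24 in Th17 cells, 2.85 and 2.83 in Th2 cells and 2.82 and 3.98 in Th1 cells. The single high value was that of Th17 replicate 2, and the other Th17 array was at background. The Tfh values stood 0.44 above the limit, close to the middle of their own arrays. Ccl20 was called in none of the 6 comparisons by limma, and its unadjusted p was at least 0.157. Without Th17 replicate 2 the Th17 minus Th2 difference of 2.19 became -0.022 and the Tfh minus Th17 difference of -1.46 became 0.75. Without Th17 replicate 1 both were called, at 4.40 (adjusted p = 0.0338) and -3.67 (adjusted p = 0.00327), again with 1 Th17 array and a spread from the other groups. The level of Ccl20 in Th17 cells therefore rests on which of the 2 arrays is read.

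Rora, the ROR factor of the set, followed the same order as Ccr6 but, on its main probe set, stayed above background on every array. Its main probe set (1424034_at) read 11.79 and 11.82 in Tfh cells, 9.68 and 10.64 in Th17 cells, 6.53 and 4.59 in Th2 cells and 7.24 and 4.88 in Th1 cells. Every Tfh and Th17 array lay above every Th2 and Th1 array, by at least 2.44 log2 units, second only to Ccr6 among tested genes as deposited and under both other scalings (2.32 and 2.42). Th2 and Th1 cells overlapped. Rora rose by 6.24 in Tfh cells relative to Th2 cells (SE 0.95, adjusted p = 0.00209) and by 5.74 relative to Th1 cells (SE 0.95, adjusted p = 0.00301). Against Th17 cells the Tfh difference was 1.64 (95% interval -0.70 to 3.99, adjusted p = 0.177), with 0.82 left after subtracting the difference of the median gene. The Th17 differences were 4.60 from Th2 cells (interval 2.25 to 6.94, adjusted p = 0.128) and 4.10 from Th1 cells (interval 1.75 to 6.45, adjusted p = 0.258), neither of which passed.

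The other Rora probe sets allowed a check within the gene, although they read the same RNA and are not replicates. Of the 9 probe sets 7 were above background on some array, 5 of them on all 8 arrays, and 2 (1441085_at and 1458145_at) were at background on all 8. In all 7 both Tfh arrays lay above both Th17 arrays and these above all Th2 and Th1 arrays. The Tfh minus Th17 difference ranged from 1.24 to 2.57 over the 7 and was called for 5, but it ranged from 0.25 to 1.51 with 2 called after quantile normalization, and 2 were called after the shift to the same median. Against Th2 cells the Tfh difference ranged from 3.36 to 6.76 and was called for all 7. Against Th1 cells it ranged from 3.22 to 6.24, again called for all 7, and for 6 after quantile normalization. Th17 minus Th2 ranged from 1.42 to 4.60 with 4 called, and Th17 minus Th1 from 1.28 to 4.10 with 1 called, 1458129_at (3.17, adjusted p = 0.0387). That probe set was at background on all Th2 and Th1 arrays (2.46 to 2.55) and passed the filter through the Tfh and Th17 arrays alone. Probe set 1424035_at was at background on both Th2 arrays and on Th1 replicate 2. The calls of these probe sets against Th2 or Th1 cells therefore set signal against values at or near background.

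**Figure D2:**
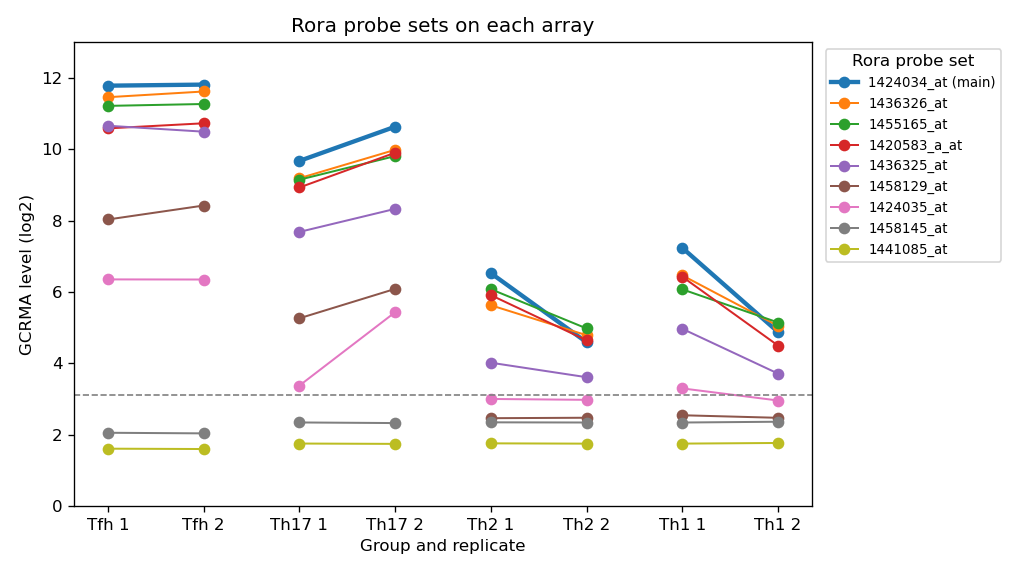
Level of the 9 Rora probe sets (y axis, GCRMA value on the log2 scale) on the 8 arrays (x axis), 1 line per probe set within each group, with the main probe set drawn thicker and the background limit of 3.13 dashed. The 7 probe sets above background are highest on the Tfh arrays and next highest on the Th17 arrays, and the 2 lowest lie at background throughout.

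The probe sets also moved together within groups. Th17 replicate 2 was above Th17 replicate 1 for all 7 probe sets above background, Th1 replicate 1 was above Th1 replicate 2 for all 7, and Th2 replicate 1 was above Th2 replicate 2 for 6. The spread between arrays of a cultured group was thus shared by most probe sets. It was wide, with an SD of 0.68 in Th17 cells, 1.37 in Th2 cells and 1.67 in Th1 cells for the main probe set, against 0.021 in Tfh cells.

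**Figure D3:**
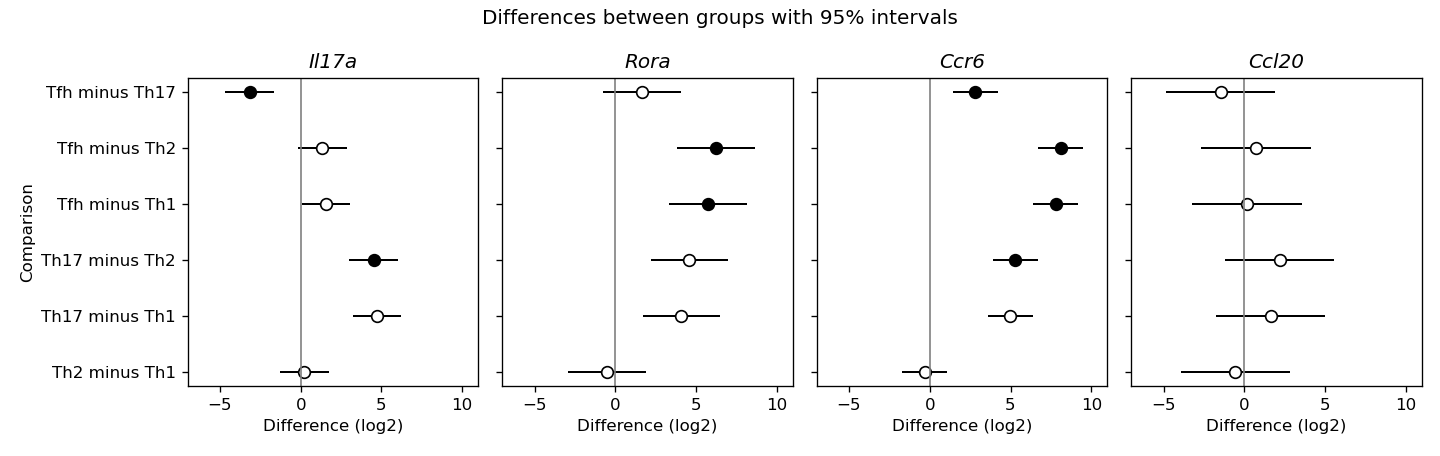
Difference of the first minus the second group (x axis, log2 units) for each of the 6 comparisons (y axis) and each of Il17a, Rora, Ccr6 and Ccl20, with 95% intervals of the limma fit. Filled points passed an adjusted p of 0.05 with a difference of at least 1 log2 unit. Il17a is the gene called lower in Tfh than in Th17 cells, Ccr6 the one called higher, and Ccl20 has no filled point.

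Counted together, 1 of the 4 tested genes was called higher in Tfh than in Th17 cells (Ccr6) and 1 lower (Il17a), where 41.8% and 6.17% of tested genes were. Rora and Ccr6 were called higher in Tfh than in Th2 cells and than in Th1 cells, where 42.8% of tested genes were in each. Il17a and Ccr6 were called higher in Th17 than in Th2 cells, where 0.188% were. Between Th17 and Th1 cells limma called none of the 4, where 0.143% of tested genes were called, although Il17a, Rora and Ccr6 had an unadjusted p under 0.05. Between Th2 and Th1 cells none was called and none had an unadjusted p under 0.05, with 1.24% of tested genes called. All 4 passed the filter on low values, Ccl20 and Ccr6 through a part of the arrays only.

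Of the wider IL-17 family, 9 of 10 listed genes were on the array and 5 were tested. Il17re, a chain of the receptor for IL-17C, had a pattern like that of Il17a: 2.66 and 2.65 in Tfh cells, 4.84 and 6.95 in Th17 cells, 2.52 and 2.58 in Th2 cells and 2.58 and 2.59 in Th1 cells. It was above background on the Th17 arrays alone, through which it passed the filter, and their mean stood 2.76 log2 units above the limit, a lower bound on the difference from the other types. The fit gave an adjusted p of 0.00556 against Tfh cells, 0.102 against Th2 cells and 0.181 against Th1 cells. Il17ra, the receptor chain shared by most IL-17 cytokines, was higher in Tfh cells, at 11.31 and 11.28, against 8.63 and 9.34 in Th17 cells (difference 2.31, adjusted p = 0.00113; 1.44 after quantile normalization). Traf3ip2, the adaptor that carries its signal, rose by 1.88 in Tfh relative to Th17 cells (adjusted p = 0.000855), a call that was lost after quantile normalization, when the difference was 0.72. Il17d, another cytokine of the family, had group means at background throughout. Of the 5 tested, 2 were called higher and 1 lower in Tfh than in Th17 cells as deposited, beside 41.8% and 6.17% of all tested genes. After quantile normalization 1 was called higher and 1 lower, beside 1558 higher and 2275 lower among all tested genes. The median difference as deposited was 0.59, beside 0.83 for all tested genes.

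The next list held receptors for the cytokines that induce Th17 cells, with the cytokine subunits Il23a and Il12b and the receptor kinases Jak2 and Tyk2. Of 11 tested, 7 were called higher in Tfh than in Th17 cells, Jak2 and Tyk2 among them, and 1 lower, beside 41.8% and 6.17% of all tested genes. The median difference was 1.66, beside 0.83 for all tested genes. After quantile normalization 4 were called higher and 1 lower, beside 1558 higher and 2275 lower among all tested genes. Il6ra, the IL-6 receptor chain, was 9.46 and 9.61 in Tfh cells and 4.67 and 5.40 in Th17 cells (difference 4.50, adjusted p = 0.000294). Tgfbr2, a TGF-beta receptor chain, rose by 2.68 (adjusted p = 0.000225). Il12rb1, which pairs with IL-23 receptor, was the 1 called lower, with 7.90 and 7.92 in Tfh cells against 10.39 and 9.85 in Th17 cells (difference -2.21, adjusted p = 0.000351; -3.58 after quantile normalization). Il1r1, the IL-1 receptor, was the only gene of these lists called between Th17 and Th1 cells, at 8.54 and 8.02 in Th17 cells against 4.06 and 4.09 in Th1 cells (difference 4.20, adjusted p = 0.00997), where 0.0805% of tested genes were called higher. Its Th17 minus Th2 difference was 0.93 (adjusted p = 0.219).

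Among transcription factors of the Th17 programme, 9 of 10 listed were tested, and 5 were called higher and none lower in Tfh than in Th17 cells by limma (6 higher and none lower at an unadjusted p under 0.05), with 2 higher after quantile normalization. Of all tested genes 41.8% were called higher as deposited, and 1558 were called higher and 2275 lower after quantile normalization. The median difference of the list as deposited was 1.80 beside 0.83. Nfkbiz, a nuclear I-kappa-B protein that cooperates with ROR factors, was 12.88 and 12.92 in Tfh cells and 9.79 and 9.76 in Th17 cells (difference 3.13, adjusted p = 3.14e-05). Stat3, which carries the IL-6 and IL-23 signals, rose by 2.47 (adjusted p = 0.00134), and Runx1 by 1.81 (adjusted p = 0.00245), which was not called after quantile normalization (0.60, adjusted p = 0.113). Hif1a, the hypoxia factor, differed by 0.67, under the minimum of 1. Between Th17 cells and the other cultured types none of the 9 was called; at an unadjusted p under 0.05, none was higher and 2 were lower than in Th2 cells, and 2 were higher and 1 lower than in Th1 cells.

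**Figure D4:**
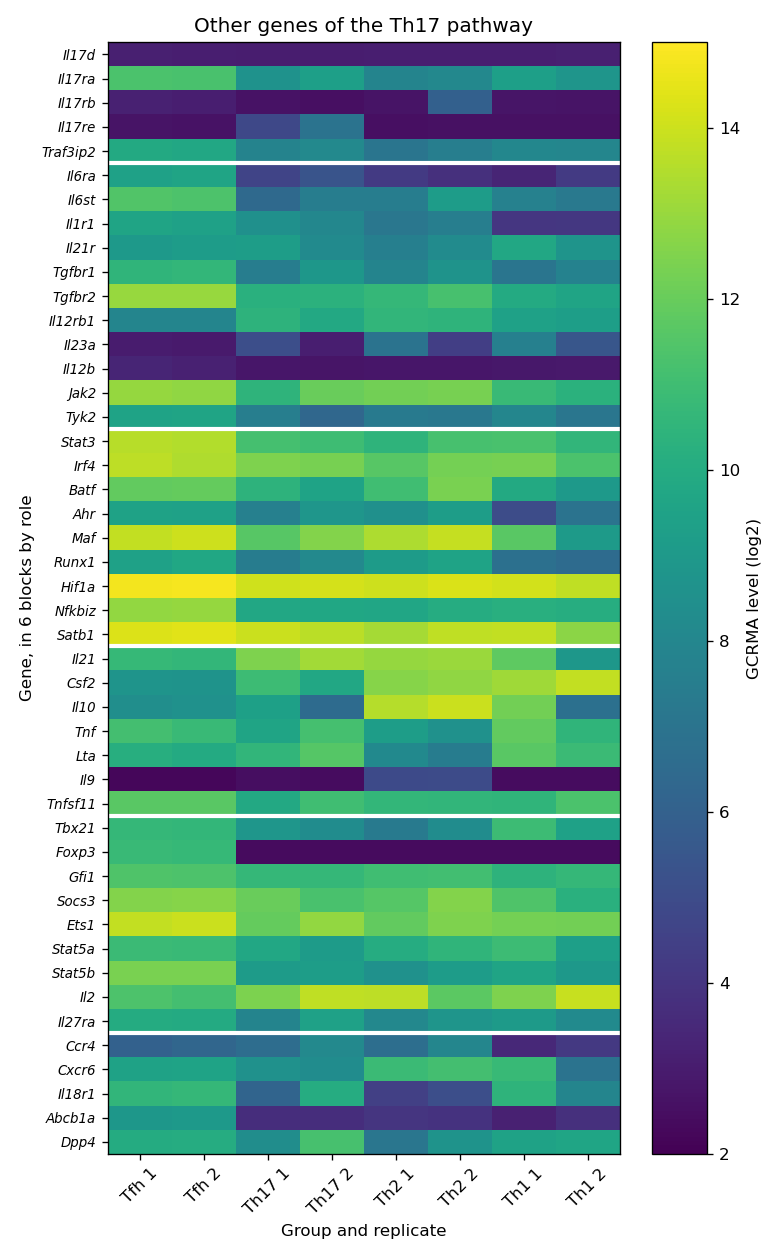
Level (colour, GCRMA value on the log2 scale) of the tested genes of the wider pathway (rows) on each array (columns, Tfh, Th17, Th2 and Th1 replicates in turn), in 6 blocks: the IL-17 family, receptors of inducing cytokines, transcription factors, other cytokines, restraining factors and surface molecules. Il17re stands out on the Th17 arrays, Il1r1 is low on the Th1 arrays, and Foxp3 and Abcb1a are bright on the Tfh arrays alone.

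Other cytokines that Th17 cells can make varied among the types. Of 7 tested, 1 was called higher and 1 lower in Tfh than in Th17 cells, beside 41.8% and 6.17% of all tested genes, with a median difference of -0.24 beside 0.83. After quantile normalization 3 were called lower, and the 1 called higher, Tnfsf11, no longer was (0.49, adjusted p = 0.351). Under that scaling 2275 of all tested genes were called lower and 1558 higher. Csf2, which encodes GM-CSF, was lowest in Tfh cells (8.74 and 8.65), and read 10.91 and 9.81 in Th17 cells, 12.66 and 12.83 in Th2 cells and 13.13 and 13.79 in Th1 cells. It fell by 1.67 in Tfh relative to Th17 cells (adjusted p = 0.0115), and the difference was -2.93 after quantile normalization. Il9 was at background in Tfh, Th17 and Th1 cells and reached 4.90 and 4.99 in Th2 cells, the arrays through which it passed the filter. The Th2 mean stood 1.82 log2 units above the limit, a lower bound on how far Th17 cells lay below it. Il9 was the 1 gene of the list called lower in Th17 than in Th2 cells (adjusted p = 8.42e-05), as were 0.483% of tested genes. Lta, a TNF family cytokine, was 10.56 and 11.58 in Th17 cells and 8.18 and 7.45 in Th2 cells, a difference of 3.25 that just missed the threshold (adjusted p = 0.0524). Of 5 other surface molecules of Th17 cells, 1 was called higher in Tfh than in Th17 cells, beside 41.8% of all tested genes: Abcb1a, a drug efflux pump, at 8.88 and 8.96 in Tfh cells against 3.72 and 3.71 in Th17 cells (difference 5.21, adjusted p = 2.14e-05). Ccr4, a chemokine receptor often found with CCR6, was 6.64 and 8.10 in Th17 cells and 3.48 and 4.13 in Th1 cells, a difference of 3.56 that was not called (adjusted p = 0.158). Its Tfh minus Th17 difference was -1.21 (adjusted p = 0.141) as deposited and -2.77 (adjusted p = 0.013), called lower, after quantile normalization.

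The genes whose pattern over the 8 arrays was most like that of each member were named by Pearson correlation, given as a description because the 8 arrays form 4 groups and the Tfh arrays differ in distribution. For Il17a they were Upp1 (r = 0.952), Milr1 (0.926) and Ift81 (0.925). For Rora they were Def8 (0.982), Tnk2 (0.977) and Lrba (0.977), and for Ccr6 Tonsl (0.988), Unc119b (0.983) and Eif2b2 (0.982). For Ccl20 they were Bend6 (0.969), Speer3 (0.957) and Ssbp2 (0.953), which also had their highest value on Th17 replicate 2. Upp1 read 9.38 and 9.83 in Th17 cells and at most 7.65 elsewhere. Next to Il17a in the width of the gap between Th17 and all other arrays stood Lum (2.77), Espn (2.30), Prr29 (2.29), Shroom3 (2.26), Dab2 (2.18) and Il17re (2.17). After Ccr6 and Rora, the genes with the widest gap between the Tfh and Th17 arrays and the others were Tnfrsf25 (2.41), Cxcl10 (2.31) and Card6 (1.74), as deposited.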

How the data were processed

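Total RNA of 8 samples, 2 in each of the Tfh, Th17, Th2 and Th1 groups, was labelled with biotin by in vitro transcription and hybridised to Affymetrix arrays of 45101 probe sets, per the labels' protocols. The deposited values are log2 expression values that the authors summarised with GCRMA, per the submitters' processing notes. The GCRMA version is not given in the sources used here, and nor is the set of arrays it was run on. The values were used as deposited, and the small number of arrays sets their precision.

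Probe sets were named through the platform annotation: 34945 had 1 symbol, 932 several, 9160 were unnamed here and 64 were controls. Each gene was represented by its probe set of highest average level, and was tested when at least 2 arrays exceeded 3.13, the median (percentile 50) of all values. Groups were compared with limma 3.58.1 in R 4.3.3 (1 coefficient per group over all 8 arrays, eBayes with trend, 4 residual and 1.78 prior degrees of freedom, two-sided, Benjamini-Hochberg over 11178 genes). A gene was called at an adjusted p under 0.05 and an absolute log2 difference of at least 1. Each difference is the first group named minus the second. The 3 comparisons with Tfh share the Tfh arrays, and each cultured group likewise enters 3 comparisons. The script was tested on simulated data.

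The members and the gene lists were chosen with earlier results of these data known. Of each list of other pathway genes, up to 4 tested members with the smallest adjusted p in any comparison were named, with those a statement turned on; likeness was ranked by Pearson correlation, leaving out symbols of unnamed transcripts. Genes beside the widest gaps between arrays, and Il12b, Il23a, Jak2, Nr1d1, Tnfsf11 and Tyk2, were named after their values were seen. Alternatives were another scaling (quantile, common median), filter, probe set rule, variance model, set of arrays and fold minimum, each array left out, and the replicate number as a block. Replicate numbers were taken from the titles. No slide or scan date is in the table used. Promoter windows are RefSeq's for GRCm38.p6, with the bases after the start left out.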

Additional observations from a re-analysis of the deposited data

How the results depend on the processing

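The calls of Il17a and Ccr6 between Tfh and Th17 cells, and of Ccr6 and Rora between Tfh and Th2 or Th1 cells, kept their direction and their side of the threshold under every alternative taken alone, including each array left out. Another probe set combined with quantile normalization was the exception: Rora 1424035_at between Tfh and Th1 cells was not called (1.84, limma adjusted p = 0.0625). With each array left out in turn, when a group of 1 array is assumed to vary like the others, the genes called ranged from 4377 to 5453 for Tfh against Th17 (5357 as reported), from 4679 to 5656 for Tfh against Th2 (5554) and from 4520 to 5535 for Tfh against Th1 (5469). They ranged from 22 to 161 for Th17 against Th2 (75), from 3 to 112 for Th17 against Th1 (16) and from 26 to 238 for Th2 against Th1 (139). The lowest of each of these last 3 ranges came without a Tfh array, 3 without either for Th17 against Th1, and the highest without Th17 replicate 1, Th1 replicate 1 and Th1 replicate 2 in turn. A log2 minimum of 2 gave 2310, 2644 and 2531 for Tfh against Th17, Th2 and Th1, and 10 for Th17 against Th1. Th17 against Th1 had 10 calls after the shift to a common median, 9 with no filter and 5 with the replicate block. A fit of the 2 groups alone gave 5 calls for Th17 against Th2, and limma then called 0 for Th17 against Th1 (535 at an unadjusted p under 0.05) and 0 for Th2 against Th1 (1252). A fit of the cultured arrays gave 26, 3 and 28 for Th17 against Th2, Th17 against Th1 and Th2 against Th1. Averaging the Tfh arrays also gave fewer calls than reported in these comparisons. In both fits the difference between the 2 Tfh arrays, which lay closest together, does not enter the spread. A filter at the 75th percentile gave 42 for Th17 against Th2. The cause of these changes was not tested.

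With the replicate number as a block, the Il17a call between Th17 and Th2 cells was lost (adjusted p = 0.0594), and no other call of the 4 genes changed. The labels do not say that a number marks a common animal or day, and the deviations of same-numbered arrays from their group means correlated between -0.002 and 0.27 over genes. For Rora between Tfh and Th17 cells, the mean of its probe sets gave a call (1.47, adjusted p = 0.0219), as did a fit of those 4 arrays (adjusted p = 0.0264). Ccl20 between Tfh and Th1 cells turned to -0.41 after quantile normalization and -0.22 after the shift, and ranged from -0.41 to 0.75 with an array left out. Other uncalled differences whose sign turned with an array left out were Ccl20 between Tfh and Th17 (-3.67 to 0.75), Th17 and Th1 (-0.58 to 3.84), Th17 and Th2 (-0.022 to 4.40) and Th2 and Th1 cells (-1.14 to 0.023), and, between Th2 and Th1 cells, Il17a (-0.74 to 1.18) and Rora (-1.68 to 0.68). Signal near background limits Ccl20 in most arrays and Ccr6 in Th2 and Th1 cells.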

Other observations

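Factors that restrain Th17 cells were measured with the same fit. Of 9 tested, 4 were called higher and none lower in Tfh than in Th17 cells by limma (6 higher and none lower at an unadjusted p under 0.05), and 3 higher and 1 lower after quantile normalization. As deposited, the share called higher is near that of all tested genes, 41.8%, and the median difference was 1.36 beside 0.83. After quantile normalization 1558 of all tested genes were called higher and 2275 lower. Foxp3, the factor of regulatory T cells, which opposes ROR factors, was 10.79 and 10.73 in Tfh cells and at background on all 6 cultured arrays, at 2.36 to 2.40. It passed the filter through the Tfh arrays alone, whose mean stood 7.63 log2 units above the background limit. For the values as deposited, that is a lower bound on the difference from each cultured type (limma adjusted p = 6.31e-07 against Th17 cells). Stat5b, which carries IL-2 signals, was 12.38 and 12.40 in Tfh cells and 9.11 and 9.24 in Th17 cells (difference 3.22, adjusted p = 0.000324). Tbx21, the T-box factor of Th1 cells, rose by 2.06 in Tfh relative to Th17 cells (adjusted p = 0.0178), a call that was lost after quantile normalization (1.02, adjusted p = 0.146). Gfi1 differed by 0.74, under the minimum of 1.

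ROR factors are also known for driving genes of the circadian clock. Of 6 clock genes tested, 4 were called higher in Tfh than in Th17 cells as deposited, beside 41.8% of all tested genes. After the shift to a common median 3 were, beside 3319 among all tested genes. After quantile normalization Arntl, Clock and Npas2 had limma adjusted p values of 0.194, 0.167 and 0.394. Arntl was 9.63 and 9.59 in Tfh cells, 7.34 and 8.32 in Th17 cells, 6.70 and 6.38 in Th2 cells and 6.34 and 6.17 in Th1 cells. It followed the order of the Rora means as far as Tfh above Th17 above the others, with a Tfh minus Th1 difference of 3.36 (adjusted p = 0.000498), and with Th17 differences of 1.29 from Th2 and 1.58 from Th1 cells that were not called (adjusted p = 0.196 and 0.24). Clock read 8.90 and 8.90 in Tfh cells and 6.86 and 7.32 in Th17 cells (difference 1.81, adjusted p = 0.00193). Npas2 rose by 2.19 in Tfh relative to Th17 cells (adjusted p = 0.0114). Nr1d1, a target of ROR factors that represses Arntl, was at background on all 8 arrays.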
